A study of Mus musculus with 18 samples.

Results

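Axon guidance ligands and receptors were followed in the mouse cortex after injection of lipopolysaccharide (LPS), a bacterial membrane product that triggers innate immunity, in mice lacking Chd8 in astrocytes and in control mice. Chd8 is a chromatin remodelling factor associated with autism, and its conditional knockout (cKO) here was restricted to astrocytes. The members are the Slits and their Robo receptors, semaphorins of classes 3 to 7 with plexins and neuropilins, ephrins with Eph receptors, and netrins and netrin-G proteins with Dcc and the Unc5 receptors. They were chosen by the pattern of their gene symbols, and 69 of the 13784 genes in the authors' deposited tables matched (36 ligands and 33 receptors in 13 families). Bulk cortex RNA was sequenced from 18 mice, namely cKO mice given LPS (5 mice), cKO mice given saline (4), control mice given LPS (5) and control mice given saline (4). LPS was injected into the abdominal cavity at 5 mg/kg in mice 4 to 6 months old, and tissue was taken after 72 hours. Neither the Cre line behind the astrocyte-specific knockout nor the sex of the mice is given in the sources used here.

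Guidance cues are secreted or membrane-bound proteins that attract or repel growing axons through receptors which reorganise the actin cytoskeleton. Slits repel through Robos, semaphorins act mainly through plexins with neuropilins as co-receptors for most class 3 members, ephrins and Ephs signal in both directions between touching cells, and netrins attract through Dcc and repel through Unc5 receptors. In the adult cortex many of these genes remain expressed in neurons, where they bear on synapses, and others, such as Robo4, Efnb2, Ephb4 and Plxnd1, are known from blood vessels.

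The values are those of 3 comparisons by the authors: LPS against saline in cKO mice, LPS against saline in control mice, and cKO against control mice after LPS. A gene is counted as having risen or fallen where its false discovery rate (FDR) in the authors' deposited table is below 0.05. Each log2 fold change is given ± a standard error derived from the deposited F statistic. Values per mouse were not used here, so levels are means of groups in log2 CPM (read counts scaled to a common library total), back-calculated from the deposited fold change and mean level, and neither the overlap of single mice nor the depth of the libraries can be stated. In bulk tissue, fewer cells of a type and less RNA per cell cannot be told apart.

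Chd8 itself differed by 0.02 ± 0.05 on the log2 scale between cKO and control mice after LPS (FDR 0.901), so the genotype label could not be checked from whole-cortex RNA of this gene. All 11 excitatory neuron markers of cortex were measured. The 8 striatal markers were all higher in cKO than in control mice after LPS (median log2 difference 0.61, none passing). Summed over the list, the striatal markers stood at 421 CPM in cKO mice given LPS, 356 CPM in cKO mice given saline, 298 CPM in control mice given LPS and 311 CPM in control mice given saline. The Y-linked gene Ddx3y was at 5.71 log2 CPM in cKO mice given LPS, 5.87 in cKO mice given saline, 3.68 in control mice given LPS and -7.19 in control mice given saline. Y-linked RNA thus differed between the groups and was close to absent in control mice given saline. Ddx3y passed after LPS in control mice (log2 fold change 10.9, FDR 0.0351, in the authors' deposited table). Sex and LPS therefore cannot be fully told apart in control mice, nor where their response is set against that of cKO mice. Ddx3y was also lower in control than in cKO mice, both after LPS and after saline. Sex and genotype thus cannot be fully told apart in either state. Of the X-linked members, Efnb1, Plxna3 and Plxnb3, none passed in any comparison. Choroid plexus markers (3 of 6 measured) summed to 22.1 CPM in cKO mice given LPS, 116.8 CPM in cKO mice given saline, 11.4 CPM in control mice given LPS and 114 CPM in control mice given saline, with none passing. Of 8 fibroblast and meningeal markers, 2 rose after LPS in cKO mice and 5 in control mice (median log2 fold change 0.68 in each), and none fell. The part of dissection, of these other tissues and of sex in the results below was not tested.

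After LPS, 21 of the 69 members (30.4%) changed in cKO mice, against 19.5% of all genes in the same authors' deposited table. Of these, 12 rose and 9 fell, while 10.9% of all genes rose and 8.52% fell. In control mice 5 members (7.25%) changed, 3 rising and 2 falling, against 9.76% of all genes (6.46% rising, 3.31% falling). The median log2 fold change over the members was -0.02 in cKO mice and 0.02 in control mice, against 0.00 over all genes in each. With the trend of fold changes on GC content and transcript length removed, the control median turned negative: the medians were -0.08 in cKO mice (-0.03 over all genes) and -0.07 in control mice (-0.04 over all genes). In that setting 16 members changed in cKO mice, of which 7 rose and 9 fell, and 13 of these were among the 21. The share of all genes that changed in that setting was not computed. At an unadjusted p below 0.05 in the authors' edgeR tests there were 31 members in cKO mice, against 35.8% of all genes, and 15 in control mice, against 28.9%. A further 5 members in cKO mice had an FDR between 0.05 and 0.06, namely Nrp1, Plxna4, Ntng2, Ephb6 and Sema4d.

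**Figure D1:**
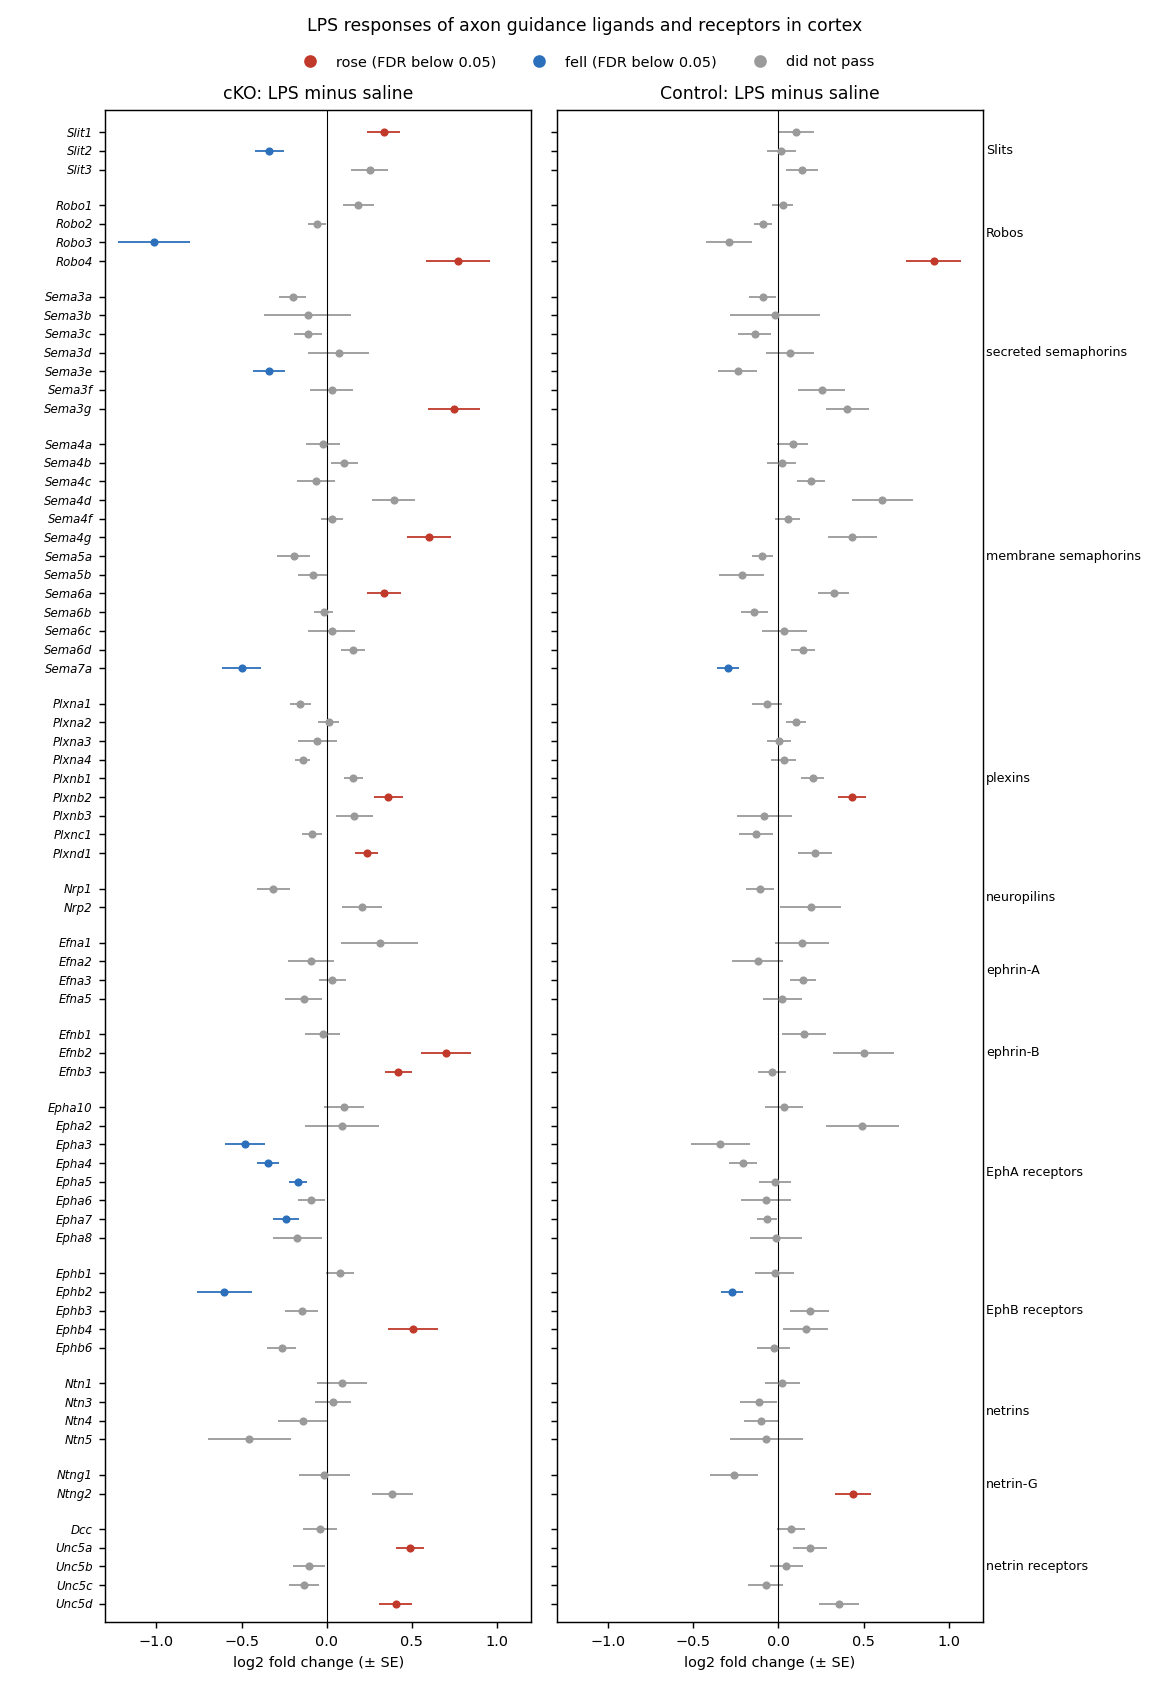
Log2 fold change after LPS for the 69 guidance members in cKO mice (left panel) and control mice (right panel), grouped by family, from the authors' deposited tables. Points are coloured by whether the FDR is below 0.05 and bars are 1 standard error; 21 members are coloured in cKO mice and 5 in control mice.

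In all, 4 of the 69 members passed in both genotypes, against 725 of all 13784 genes. Each of these members moved the same way in both. Robo4, the Robo family member known from vascular endothelium, and Plxnb2, a plexin that receives class 4 semaphorins, rose. Sema7a, a GPI-anchored semaphorin that binds plexin C1 and integrins, and Ephb2, a receptor for B-class ephrins found at excitatory synapses, fell.

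Robo4 (ENSMUSG00000032125) stood at 3.24 log2 CPM in cKO mice given LPS and 2.47 in cKO mice given saline, and at 3.34 in control mice given LPS and 2.43 in control mice given saline. In the authors' deposited tables this was a rise of 0.77 ± 0.19 in cKO mice (1.70-fold, FDR 0.0218) and of 0.91 ± 0.16 in control mice (1.88-fold, FDR 0.0105). Robo4 had the highest log2 fold change of the 69 members in both genotypes, and its response differed between them by -0.14, with a 95% interval of -0.83 to 0.54. Plxnb2 stood at 6.07 log2 CPM in cKO mice given LPS and 5.70 in cKO mice given saline, and at 6.12 in control mice given LPS and 5.69 in control mice given saline. The log2 fold changes of Plxnb2 in the authors' deposited tables were 0.36 ± 0.08 in cKO mice (FDR 0.0193) and 0.43 ± 0.08 in control mice (FDR 0.0149). Once the GC and length trend was removed, Plxnb2 no longer passed in either genotype, at 0.19 in cKO mice (FDR 0.132) and 0.25 in control mice (FDR 0.0826).

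Sema7a stood at 6.88 log2 CPM in cKO mice given LPS and 7.38 in cKO mice given saline, and at 7.15 in control mice given LPS and 7.45 in control mice given saline. It fell by 0.50 ± 0.11 in cKO mice (FDR 0.0187) and by 0.30 ± 0.06 in control mice (FDR 0.0239) in the authors' deposited tables. Ephb2 stood at 4.33 log2 CPM in cKO mice given LPS and 4.93 in cKO mice given saline, and at 4.65 in control mice given LPS and 4.92 in control mice given saline. It fell by 0.60 ± 0.16 in cKO mice (FDR 0.032) and by 0.27 ± 0.07 in control mice (FDR 0.0351) in the authors' deposited tables. For both genes the LPS mean was below the saline mean in each genotype and lowest in cKO mice given LPS.

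The promoters of 3 of these genes are shown with those of Robo3 and Slit2, which are described next, so that the windows of members moving up and down can be read side by side. Robo4 and Robo3 are adjacent genes on chromosome 9 in RefSeq's gene order and moved in opposite directions in cKO mice. Each sequence is RefSeq's (GRCm38.p6) and runs 5′ to 3′ along the gene's own strand, from 250 bases before to 50 bases after the annotated start. Capitals mark matches to any of 7 searched motifs, on either strand; those with a match here are the CCAAT box, the TATA box (TATAAA) and the EGR motif (GCGGGGGCG). The windows lie at chr9:37401722-37402021 on the + strand (Robo4), chr9:37433126-37433425 on the - strand (Robo3), chr5:47982905-47983204 on the + strand (Slit2), chr15:89180739-89181038 on the - strand (Plxnb2, the first of 2 annotated starts) and chr9:57939862-57940161 on the + strand (Sema7a).
Robo4: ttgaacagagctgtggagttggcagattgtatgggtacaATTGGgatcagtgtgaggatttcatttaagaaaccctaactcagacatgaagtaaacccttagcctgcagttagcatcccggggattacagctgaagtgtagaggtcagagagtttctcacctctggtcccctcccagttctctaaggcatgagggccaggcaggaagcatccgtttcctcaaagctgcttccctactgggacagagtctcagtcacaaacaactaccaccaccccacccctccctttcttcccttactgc
Robo3: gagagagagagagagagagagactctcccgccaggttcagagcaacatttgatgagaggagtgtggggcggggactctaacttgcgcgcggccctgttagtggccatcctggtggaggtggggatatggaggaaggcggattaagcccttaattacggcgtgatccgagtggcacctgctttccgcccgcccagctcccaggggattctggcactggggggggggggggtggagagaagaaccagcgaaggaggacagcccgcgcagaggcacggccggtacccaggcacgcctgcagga
Slit2: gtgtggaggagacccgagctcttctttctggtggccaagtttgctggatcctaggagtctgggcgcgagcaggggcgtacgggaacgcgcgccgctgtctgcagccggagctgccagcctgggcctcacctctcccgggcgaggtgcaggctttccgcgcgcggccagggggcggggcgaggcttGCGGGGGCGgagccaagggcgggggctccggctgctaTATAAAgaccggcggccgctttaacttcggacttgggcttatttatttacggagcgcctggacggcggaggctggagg
Plxnb2: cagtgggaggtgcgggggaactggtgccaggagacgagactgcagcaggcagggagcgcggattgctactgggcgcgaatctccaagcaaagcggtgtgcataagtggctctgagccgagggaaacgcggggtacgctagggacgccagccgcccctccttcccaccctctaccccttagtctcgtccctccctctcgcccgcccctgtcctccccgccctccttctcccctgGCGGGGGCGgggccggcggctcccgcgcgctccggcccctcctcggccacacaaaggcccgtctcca
Sema7a: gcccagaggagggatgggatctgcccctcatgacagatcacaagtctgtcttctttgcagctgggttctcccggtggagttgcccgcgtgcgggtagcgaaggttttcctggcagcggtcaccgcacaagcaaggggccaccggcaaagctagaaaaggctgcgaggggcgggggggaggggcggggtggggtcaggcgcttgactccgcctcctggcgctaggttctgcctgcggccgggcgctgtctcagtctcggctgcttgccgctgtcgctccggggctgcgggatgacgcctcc

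The Robo4 window is the least GC-rich of the 5, at 50.3% GC with 2 CpG dinucleotides, and holds a CCAAT match starting at position -211. The Robo3 window has 63.3% GC with 17 CpG and no match, and the Sema7a window 67.3% with 23 CpG and no match. The Slit2 window has 68.0% GC with 30 CpG, an EGR match at -65 and a TATAAA match at -28. The Plxnb2 window has 70.3% GC with 27 CpG and an EGR match at -17. Over 75 promoters of the 59 members matched by symbol, the median was 64.3% GC with 20 CpG, against 52.7% and 7 over all 32851 promoters in the table and 61.0% and 20 over the 13268 promoters of genes tested here. CCAAT is in 37.4% of all promoters of this length, TATAAA in 13.6% and the EGR motif in 2.91%. Among promoters of genes tested here the shares are 37.3% for CCAAT, 7.09% for TATAAA and 5.54% for the EGR motif, and among the members' promoters 28.0%, 2.67% and 8.00% in the same order. The other motifs searched were CCGGAAG (ETS, 8.86% of all promoters and 16.2% of those of tested genes), TTCNNNGAA (STAT, 8.30%), TGACGTCA (CRE, 1.79%) and the NF-kB motif (0.155%), and none of these is in the 5 windows. The matches describe letters and not bound sites.

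Among the Slits, secreted repellents read by Robos, Slit1 rose and Slit2 fell in cKO mice, and none of the 3 passed in control mice. Slit1 stood at 6.53 log2 CPM in cKO mice given LPS and 6.20 in cKO mice given saline, a log2 fold change of 0.33 ± 0.10 (FDR 0.0381) in the authors' deposited table. In control mice it stood at 6.23 with LPS and 6.13 with saline (0.10 ± 0.11, FDR 0.557). Slit2 stood at 5.53 log2 CPM in cKO mice given LPS and 5.87 in cKO mice given saline, a fall of 0.34 ± 0.08 (FDR 0.0245) in the authors' deposited table. In control mice it stood at 5.89 with LPS and 5.88 with saline (0.02 ± 0.09, FDR 0.917). Of the 4 group means of Slit2, that of cKO mice given LPS was therefore the low one, and for Slit1 it was the high one. Removing the GC and length trend took Slit1 to 0.16 (FDR 0.26) in cKO mice, while Slit2 still passed. Slit3 was at 0.25 ± 0.11 in cKO mice (FDR 0.126) and 0.14 ± 0.09 in control mice (FDR 0.36).

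Of the 4 Robo receptors, Robo4 rose as above and Robo3, a divergent Robo known for letting commissural axons cross the midline, fell in cKO mice. Robo3 stood at 3.79 log2 CPM in cKO mice given LPS and 4.80 in cKO mice given saline, and at 4.38 in control mice given LPS and 4.67 in control mice given saline. In the authors' deposited tables its log2 fold change was -1.01 ± 0.21 in cKO mice (0.496-fold, FDR 0.0142) and -0.29 ± 0.14 in control mice (0.818-fold, FDR 0.189). This was the lowest log2 fold change of all members in cKO mice. Robo1 and Robo2, the main Slit receptors of neurons, did not pass in either genotype. Robo1 was at 0.18 ± 0.09 in cKO mice and 0.03 ± 0.06 in control mice, and Robo2 at -0.06 ± 0.05 in cKO mice and -0.09 ± 0.05 in control mice.

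Among the 7 secreted class 3 semaphorins, Sema3g rose and Sema3e fell in cKO mice, and none passed in control mice. Sema3g, known from arterial endothelium, stood at 3.34 log2 CPM in cKO mice given LPS and 2.60 in cKO mice given saline, and at 3.20 in control mice given LPS and 2.79 in control mice given saline. The log2 fold change of Sema3g in the authors' deposited tables was 0.75 ± 0.15 in cKO mice (1.68-fold, FDR 0.013) and 0.41 ± 0.13 in control mice (FDR 0.0726). Sema3e, which binds plexin D1 directly, stood at 5.15 log2 CPM in cKO mice given LPS and 5.49 in cKO mice given saline, and at 5.23 in control mice given LPS and 5.47 in control mice given saline. Sema3e fell by 0.34 ± 0.09 in cKO mice (FDR 0.0319) in the authors' deposited table and was at -0.24 ± 0.11 in control mice (FDR 0.198); with the GC and length trend removed its cKO value was -0.25 (FDR 0.0861). The other 5 secreted semaphorins lay between -0.20 (Sema3a) and 0.07 (Sema3d) in cKO mice.

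Of the 13 membrane-bound semaphorins, Sema4g and Sema6a rose and Sema7a fell in cKO mice, and Sema7a alone passed in control mice. Sema4g, a class 4 semaphorin, stood at 4.00 log2 CPM in cKO mice given LPS and 3.40 in cKO mice given saline, and at 3.96 in control mice given LPS and 3.52 in control mice given saline. Its log2 fold changes in the authors' deposited tables were 0.60 ± 0.13 in cKO mice (FDR 0.0147) and 0.43 ± 0.14 in control mice (FDR 0.0802). Sema6a, which binds plexins A2 and A4, had nearly equal log2 fold changes, 0.34 ± 0.10 in cKO mice (FDR 0.0436) and 0.33 ± 0.09 in control mice (FDR 0.0512). The Sema6a call in cKO mice was lost with the GC and length trend removed (0.30, FDR 0.0694). Sema4d, the ligand of plexin B1, was above 0 in both genotypes without passing, at 0.39 ± 0.13 in cKO mice (FDR 0.0557) and 0.61 ± 0.18 in control mice (FDR 0.0589).

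Of the 9 plexins, Plxnb2 and Plxnd1 rose in cKO mice and Plxnb2 alone in control mice. Plxnd1, the receptor of Sema3e and a regulator of vessel patterning, stood at 6.98 log2 CPM in cKO mice given LPS and 6.75 in cKO mice given saline, and at 6.90 in control mice given LPS and 6.68 in control mice given saline. Its log2 fold change in the authors' deposited tables was 0.23 ± 0.07 in cKO mice (FDR 0.0411) and 0.22 ± 0.10 in control mice (FDR 0.19). The cKO value was 0.04 (FDR 0.71) once the GC and length trend was removed. Plxnb1, the Sema4d receptor, was at 0.16 ± 0.06 in cKO mice (FDR 0.0822) and 0.20 ± 0.07 in control mice (FDR 0.0848). Neither neuropilin passed; Nrp1, co-receptor for Sema3a and for vascular endothelial growth factor, was at -0.31 ± 0.10 in cKO mice (FDR 0.0505) and -0.11 ± 0.08 in control mice (FDR 0.418).

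**Figure D2:**
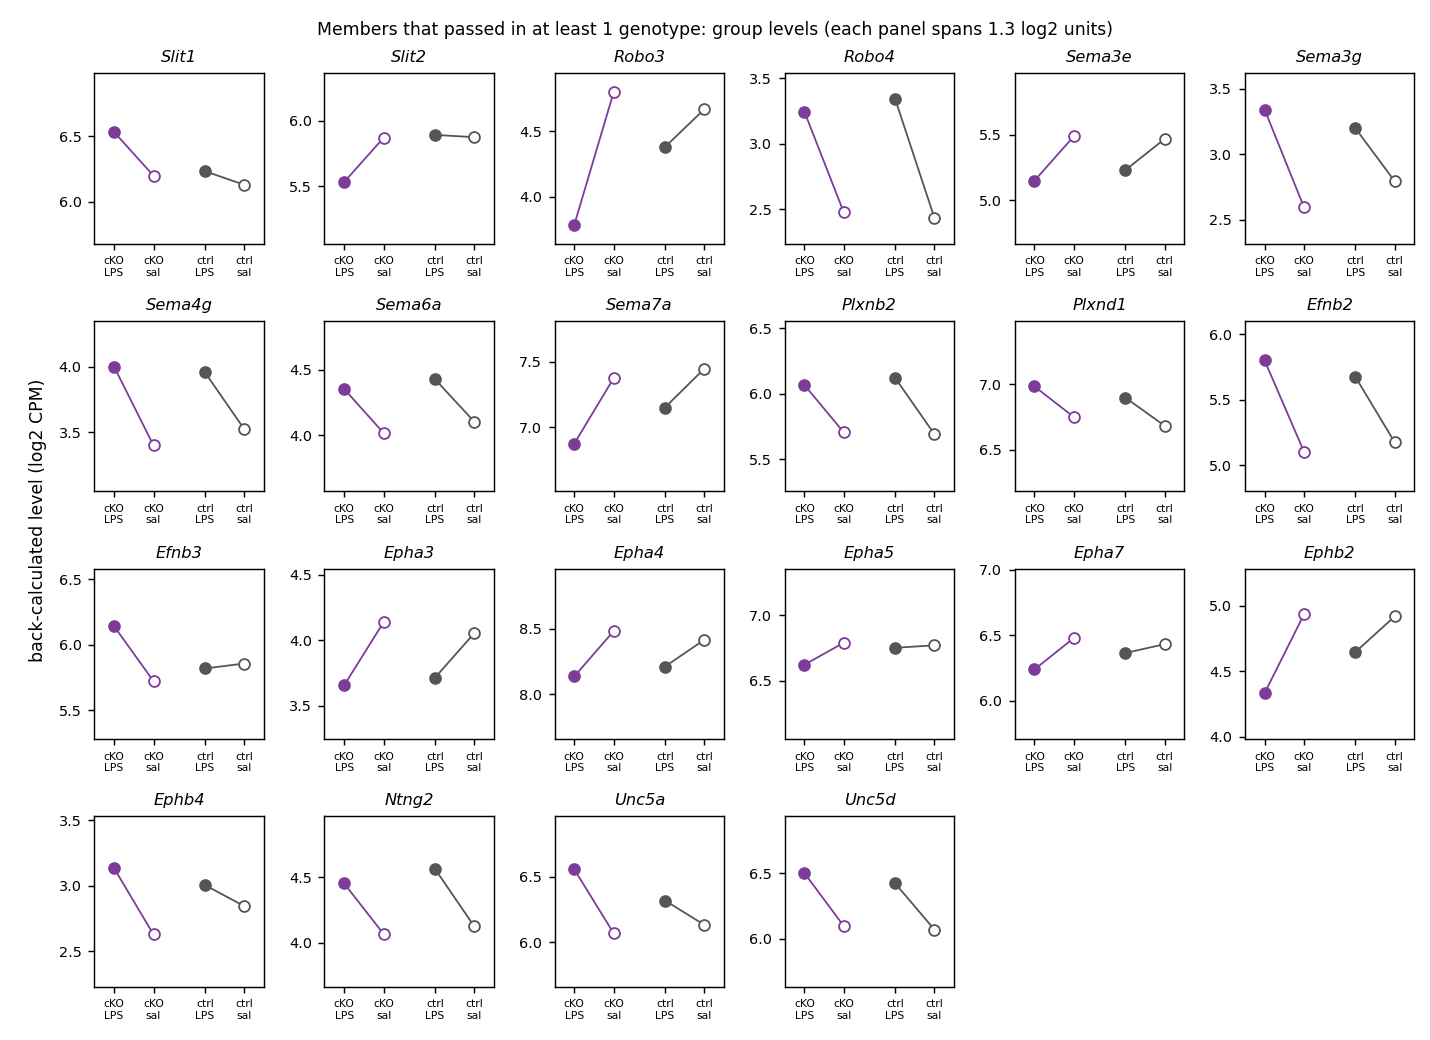
Back-calculated group means (log2 CPM) of the 22 members that passed in either genotype, in the order cKO LPS, cKO saline, control LPS, control saline. Every panel spans 1.3 log2 units; Slit2 is lowest and Efnb3 highest in cKO mice given LPS, with the other 3 means of each close together, while Robo4 is higher with LPS in both genotypes.

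The ephrin ligands that changed were both of the B class, the transmembrane ephrins. Efnb2, known from arterial endothelium and from neurons, stood at 5.80 log2 CPM in cKO mice given LPS and 5.10 in cKO mice given saline, and at 5.67 in control mice given LPS and 5.17 in control mice given saline. In the authors' deposited tables its log2 fold change was 0.70 ± 0.15 in cKO mice (1.62-fold, FDR 0.0145) and 0.50 ± 0.18 in control mice (1.41-fold, FDR 0.101). Efnb3, a neuronal ephrin, stood at 6.14 log2 CPM in cKO mice given LPS and 5.72 in cKO mice given saline, and at 5.82 in control mice given LPS and 5.86 in control mice given saline. It rose by 0.42 ± 0.08 in cKO mice (FDR 0.0107) in the authors' deposited table and was at -0.04 ± 0.08 in control mice (FDR 0.801). The LPS mean of Efnb2 was above its saline mean in both genotypes, whereas that of Efnb3 was above in cKO mice and slightly below in control mice. Efnb1 and the 4 ephrin-A ligands did not pass in either genotype.

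Of the 8 EphA receptors, 4 fell and none rose in cKO mice, where 8.52% of all genes fell and 10.9% rose. None passed in control mice; 2 had an unadjusted p below 0.05 in the authors' edgeR test, against 28.9% of all genes, with Epha4 below 0 and Epha2 above. Epha3 was at 3.65 log2 CPM in cKO mice given LPS and 4.14 in cKO mice given saline, a log2 fold change of -0.48 ± 0.12 (FDR 0.0234) in the authors' deposited table; in control mice it was at -0.34 ± 0.17 (FDR 0.219). Epha4, which binds ephrins of both classes, stood at 8.14 log2 CPM in cKO mice given LPS and 8.48 in cKO mice given saline, and at 8.21 in control mice given LPS and 8.42 in control mice given saline. Its log2 fold change in the authors' deposited tables was -0.35 ± 0.07 in cKO mice (FDR 0.0105) and -0.20 ± 0.08 in control mice (FDR 0.134). Epha7 and Epha5, both receptors for ephrin-A ligands, fell by 0.24 ± 0.07 (FDR 0.0497) and by 0.17 ± 0.05 (FDR 0.0486) in cKO mice in the authors' deposited table. Without the GC and length trend these calls were lost, at -0.15 for Epha7 (FDR 0.185) and -0.04 for Epha5 (FDR 0.589). Epha2, a receptor known mainly from epithelia and vessels, was at 0.09 ± 0.21 in cKO mice (FDR 0.791) and 0.49 ± 0.21 in control mice (FDR 0.162).

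Of the 5 EphB receptors, Ephb4 rose and Ephb2 fell in cKO mice, and Ephb2 alone passed in control mice. Ephb4, the venous endothelial receptor for ephrin-B2, stood at 3.13 log2 CPM in cKO mice given LPS and 2.63 in cKO mice given saline, and at 3.00 in control mice given LPS and 2.84 in control mice given saline. In the authors' deposited tables Ephb4 had a log2 fold change of 0.51 ± 0.15 in cKO mice (FDR 0.0397) and 0.16 ± 0.13 in control mice (FDR 0.451). Without the GC and length trend its cKO value was 0.35 (FDR 0.123). Ephb1 and Ephb3 did not pass, and Ephb6, a receptor that lacks kinase activity, was at -0.26 ± 0.08 in cKO mice (FDR 0.0547).

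Robo4, Sema3g, Efnb2, Ephb4 and Plxnd1, named above as known from vessels, rose in cKO mice, and of these Robo4 alone passed in control mice. Nrp1 and Epha2, also tied to vessels above, did not pass in either genotype. In cKO mice Nrp1 was at -0.31 (FDR 0.0505), the opposite direction, and Epha2 at 0.09 (FDR 0.791), in the authors' deposited table. Ephb4 (0.35, FDR 0.123) and Plxnd1 (0.04, FDR 0.71) lost their cKO calls once fold changes were corrected for GC content and transcript length. Robo4, Sema3g and Efnb2 kept theirs. The other members were not sorted by whether vessels express them, so the share of vessel-expressed members that rose cannot be given. Among those not sorted, Unc5b was at -0.10 (FDR 0.454) and Efna1 at 0.31 (FDR 0.35) in cKO mice in the authors' deposited table. Of 10 endothelial markers, all measured, 6 rose in cKO mice and 8 in control mice after LPS, and none fell. Their summed back-calculated level was 350 CPM in cKO mice given LPS and 216 CPM in cKO mice given saline, and 388 CPM in control mice given LPS and 217 CPM in control mice given saline. The lowest single marker stood at 2.25 log2 CPM or above in every group, so none was at 0. The 10 markers had a median log2 fold change of 0.39 in cKO mice (lowest 0.22) and 0.70 in control mice (lowest 0.33). Pecam1 rose by 0.75 ± 0.18 on the log2 scale in cKO mice and Cdh5 by 0.77 ± 0.15 in the authors' deposited table, both above that cKO median. The part of vessel content in the values of Robo4, Sema3g, Efnb2, Ephb4 and Plxnd1 was not tested.

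In the netrin system the 4 netrins and Dcc did not pass in either genotype, while receptors of the Unc5 family, which mediate repulsion, changed. Unc5a stood at 6.55 log2 CPM in cKO mice given LPS and 6.07 in cKO mice given saline, and at 6.32 in control mice given LPS and 6.13 in control mice given saline. Its log2 fold change in the authors' deposited tables was 0.49 ± 0.08 in cKO mice (1.40-fold, FDR 0.00741, the lowest of any member) and 0.19 ± 0.10 in control mice (FDR 0.258). Unc5d, which also binds FLRT proteins, rose by 0.41 ± 0.10 in cKO mice (FDR 0.0217) and was at 0.35 ± 0.12 in control mice (FDR 0.0845). Unc5b and Unc5c lay at -0.10 ± 0.09 and -0.13 ± 0.09 in cKO mice. Among the ligands, Ntn5 was at -0.45 ± 0.25 in cKO mice (FDR 0.215), the widest error of the netrins.

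Ntng2, a GPI-anchored netrin-G that binds the synaptic adhesion protein encoded by Lrrc4, was the only member to pass in control mice and not in cKO mice. It stood at 4.45 log2 CPM in cKO mice given LPS and 4.07 in cKO mice given saline, and at 4.56 in control mice given LPS and 4.12 in control mice given saline. Its log2 fold change in the authors' deposited tables was 0.39 ± 0.12 in cKO mice (FDR 0.0524) and 0.44 ± 0.11 in control mice (FDR 0.0344), so the values lie within their errors of each other. Ntng1 was at -0.02 ± 0.15 in cKO mice and -0.26 ± 0.14 in control mice (FDR 0.245).

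Passing in one genotype and not in the other does not show that the responses differ, so the difference itself was tested per gene. The test compared the response of cKO mice with that of control mice, which share no library, and was adjusted over all 13784 genes. No member passed, against 0.00725% of all genes, and the lowest FDR among members was 0.433. At an unadjusted p below 0.05 there were 4 members (5.80%), against 6.52% of all genes. Above 0 there was 1 (3.02% of all genes) and below 0 there were 3 (3.5% of all genes). The 1 above 0 was Efnb3, with a difference of 0.46 and a 95% interval of 0.17 to 0.74 (FDR 0.433). The 3 below 0 were Robo3 at -0.72 (interval -1.39 to -0.06, FDR 0.727), Slit2 at -0.35 (interval -0.63 to -0.07, FDR 0.657) and Ephb3 at -0.33 (interval -0.66 to -0.01, FDR 0.752). The median half-width of the members' 95% intervals was 0.32 on the log2 scale, before any adjustment over genes.

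Among the 21 members that passed in cKO mice, 4 also passed in control mice, against 725 of 2681 among all genes. Of the 17 members that passed in cKO mice and not in control mice, 15 had the same sign in both genotypes. The exceptions were Slit2 and Efnb3. The share with the same sign among all genes that passed in cKO mice only was not computed. Of the 21 members that passed in cKO mice, 19 had a larger fold change in cKO than in control mice, a count that the choice by the cKO call favours; among all genes it was 2223 of 2681. Over all 69 members, 55 had responses of the same sign in both genotypes (79.7%, against 74.2% of all genes). Across the members the Pearson correlation of the responses was 0.79 and the Spearman rank correlation 0.74, against 0.68 and 0.63 across all genes; genes of a library share its depth and makeup, so this is a description.

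**Figure D3:**
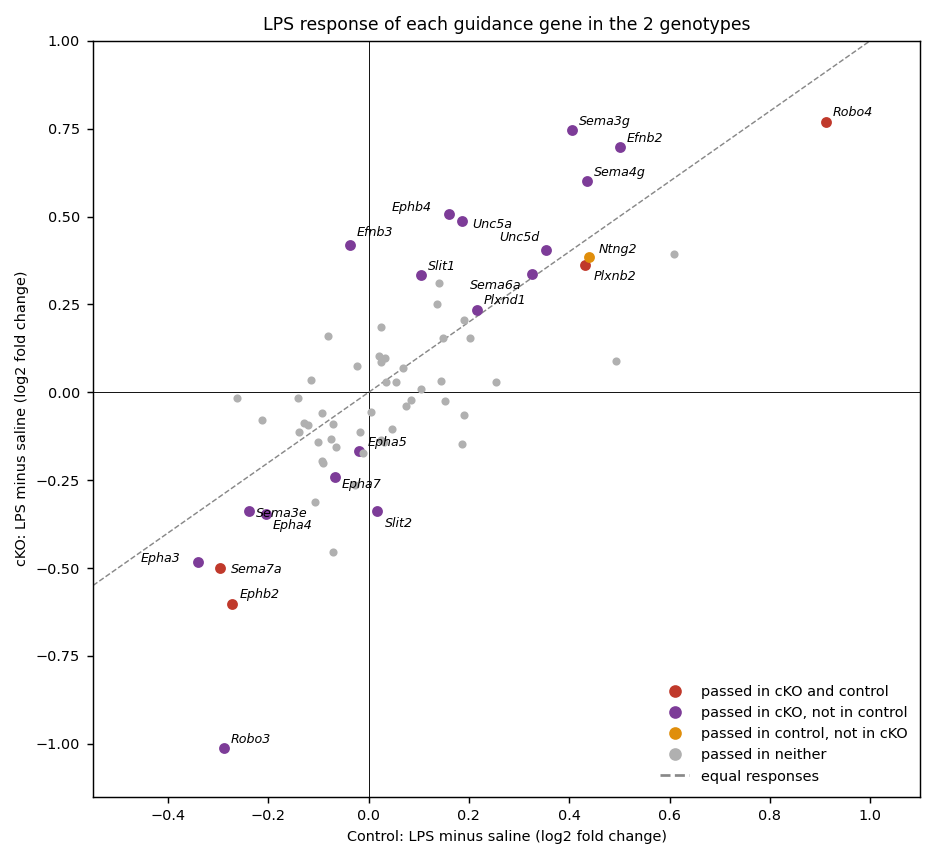
Log2 fold change after LPS in control mice (horizontal axis) against cKO mice (vertical axis) for the 69 members, coloured by the genotype in which they passed. Robo4 lies at the upper right in both genotypes, Robo3 at the bottom with -1.01 in cKO mice and -0.29 in control mice, and Efnb3 and Slit2 near 0 on the control axis.

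After LPS, the authors' deposited edgeR table held no member that differed between cKO and control mice (FDR below 0.05), against 0.00725% of all genes; the lowest FDR among members was 0.205. At an unadjusted p below 0.05 there were 15 members (21.7%), against 12.3% of all genes, and 12 of them were lower and 3 higher in cKO mice. Among all genes the split was 6.33% lower and 5.98% higher. Of the 69 members, 46 had values below 0, and the median was -0.06, against 0.00 over all genes; with the GC and length trend removed it was -0.03, against 0.01. All values of this comparison rest on the same cKO LPS and control LPS mice as the LPS responses above, so they are no independent view of them.

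The 3 members higher in cKO mice at this level were Efnb3, Slit1 and Unc5a, in the authors' deposited table. Efnb3 was at 0.39 ± 0.08 (interval 0.20 to 0.57, FDR 0.205). Slit1 was at 0.33 ± 0.11 (interval 0.08 to 0.58, FDR 0.325). Unc5a was at 0.28 ± 0.08 (interval 0.11 to 0.45, FDR 0.289). The members with the next highest values, Ntng1 at 0.25 ± 0.20 and Sema3g at 0.19 ± 0.15, had intervals that include 0. All 8 striatal markers were higher in the same comparison, as given above, and their part in these values was not tested.

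The 5 lowest values in the authors' deposited table were those of Robo3, Epha2, Slit2, Sema4c and Ephb3. Robo3 was at -0.68 ± 0.23 (interval -1.22 to -0.15, FDR 0.329). Epha2 was at -0.62 ± 0.24 (FDR 0.37). Slit2 was at -0.40 ± 0.09 (interval -0.61 to -0.20, FDR 0.229). Sema4c, a ligand of plexin B2, was at -0.40 ± 0.10 (FDR 0.282) and Ephb3 at -0.38 ± 0.11 (FDR 0.292). All 8 EphA receptors lay below 0, with a median of -0.12, though of these Epha2 alone had an unadjusted p below 0.05. The 10 endothelial markers lay below 0 as well (median -0.26). So did all 8 microglia markers (median -0.29), 7 of 9 pericyte and smooth muscle markers and 6 of 8 fibroblast and meningeal markers. Of 9 astrocyte markers, 5 lay above 0 and 4 below (median 0.34). None of the markers in these lists passed, and the part of these cell types in the values was not tested.

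**Figure D4:**
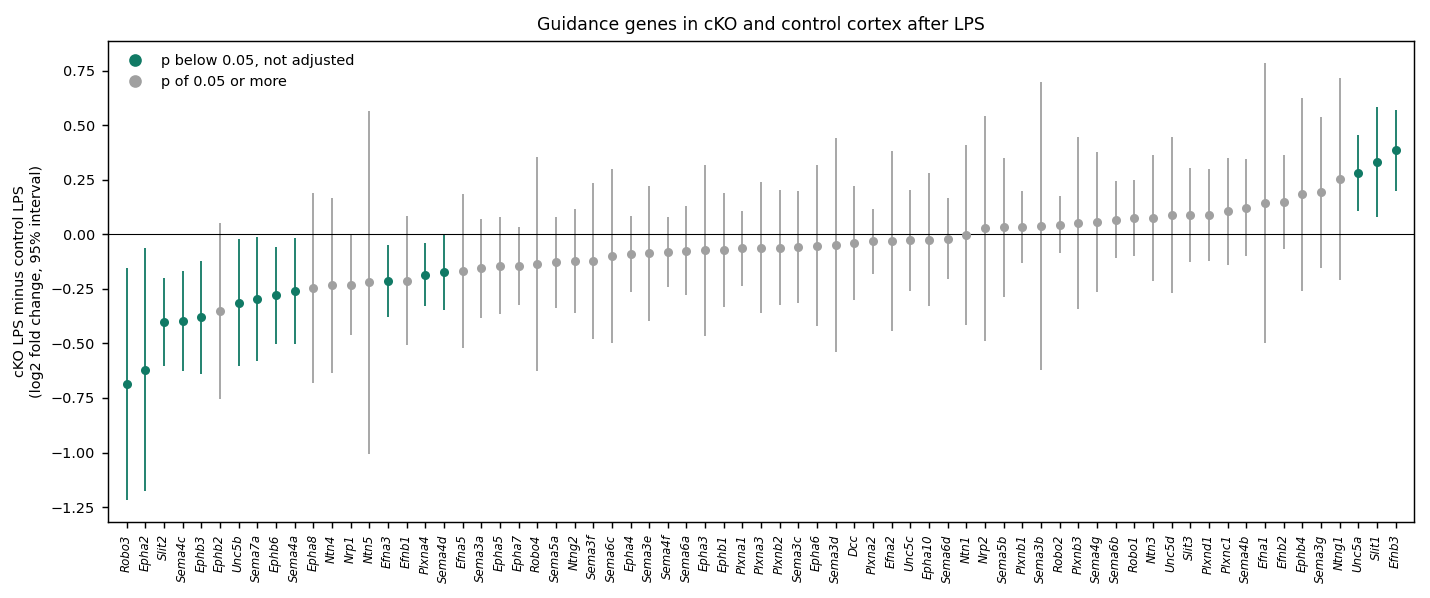
Log2 difference between cKO and control mice after LPS for the 69 members, sorted, with 95% intervals; green points have an unadjusted p below 0.05. No member passed an FDR of 0.05; Efnb3 has the highest value at 0.39 and Robo3 the lowest at -0.68.

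The genotypes were not compared after saline in the authors' deposited tables used here, but the 3 fold changes together give an estimate with no test of its own. Y-linked RNA differed between the saline groups, as given above, so sex and genotype cannot be fully told apart in this estimate. Over the members the estimated cKO minus control difference after saline had a median of -0.03 (0.00 over all genes) and ran from -0.22 (Epha2) to 0.16 (Ntn5). Of the 69 members, 1 was beyond 0.2 in either direction, against 1000 of all 13784 genes. All 9 astrocyte markers lay above 0 in this estimate (median 0.23), 5 of them beyond 0.2, and their part in the members' values was not tested. The median standard error of these estimates was 0.19 over the members, larger than most of the estimates. It combines the errors of the 3 fold changes as if they were independent. They share the LPS mice, whose means largely cancel in the estimate, so 0.19 is likely too large. For the members described above the estimate was -0.07 for Efnb3, -0.05 for Slit2, 0.04 for Robo3 and 0.10 for Slit1. Each was smaller in size than the difference after LPS. These members were named for being among the highest or lowest after LPS, a choice that favours a smaller saline estimate. The saline estimate is computed from the after-LPS difference and the 2 responses. The LPS means largely cancel in it, so it rests mainly on the saline mice and shares their errors with the 2 responses.

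Per kilobase of the longest annotated transcript, Epha4, Ephb6 and Sema7a were the members at the highest levels in every group. In cKO mice given LPS, Epha4 stood at 5.47, Ephb6 at 5.15 and Sema7a at 5.15 log2 CPM per kilobase, and in control mice given saline Epha4 stood at 5.75, Sema7a at 5.73 and Ephb6 at 5.44. Epha2 (-1.13 in cKO mice given LPS and -1.11 in control mice given saline) and Sema3b (-0.33 in cKO mice given LPS and -0.35 in control mice given saline) were at the lowest levels. Neighbours in this order such as Ephb6 and Sema7a are not separated, since the spread between mice is unknown. Robo4, which rose most, was at 0.12 log2 CPM per kilobase in control mice given saline, above Sema3b and Epha2 only.

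The intracellular effectors and co-receptors of these pathways were described with a list of 79 genes, of which 77 were measured. In cKO mice 16 of the 77 changed, 9 rising and 7 falling, against 19.5% of all genes (10.9% rising, 8.52% falling). In control mice 10 of the 77 changed, 8 rising and 2 falling, against 9.76% of all genes (6.46% rising, 3.31% falling). Rgma, a repulsive GPI-anchored ligand of neogenin, rose by 0.75 ± 0.07 in cKO mice (FDR 0.00326) and by 0.61 ± 0.13 in control mice (FDR 0.0202) in the authors' deposited tables. Fes, a tyrosine kinase linked to plexin A signalling, rose by 0.81 ± 0.24 in cKO mice (FDR 0.0453) and by 0.99 ± 0.17 in control mice (FDR 0.00867). Vasp, an actin filament elongation factor, rose by 0.67 ± 0.12 in cKO mice (FDR 0.00956) and by 0.51 ± 0.10 in control mice (FDR 0.0166). These 3 and Ablim1, an actin-binding protein (0.22 ± 0.05 in cKO mice and 0.31 ± 0.07 in control mice), rose in both genotypes.

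Mical1, a plexin-binding oxidase that disassembles actin, rose by 0.59 ± 0.10 in cKO mice (FDR 0.00838) and was at 0.01 ± 0.09 in control mice (FDR 0.934) in the authors' deposited tables. Vav2, a signalling protein used by Eph receptors, was at -0.05 ± 0.11 in cKO mice (FDR 0.781) and rose by 0.57 ± 0.11 in control mice (FDR 0.0165). The difference between the responses was 0.57 for Mical1 and -0.61 for Vav2, with an FDR of 0.433 for each, so neither passed. In cKO mice Met, a receptor kinase that associates with B plexins, fell by 0.37 ± 0.11 (FDR 0.0466) and Crmp1, a mediator of semaphorin signalling, rose by 0.34 ± 0.09 (FDR 0.0262). In control mice Mical3 rose by 0.32 ± 0.08 (FDR 0.0428), and in cKO mice it was at 0.14 ± 0.10 (FDR 0.354). None of the 77 differed between cKO and control mice after LPS in the authors' deposited edgeR table (FDR below 0.05), and 8 had an unadjusted p below 0.05, 1 higher and 7 lower in cKO mice; among all genes 12.3% did (5.98% higher, 6.33% lower). Neo1, the neogenin gene and Rgma receptor, was at -0.03 ± 0.05 in cKO mice and -0.06 ± 0.05 in control mice, and Lrrc4, the Ntng2 partner, at -0.12 ± 0.06 in cKO mice and -0.02 ± 0.06 in control mice.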

How the data were processed

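Bulk cortex RNA from 18 mice was prepared as ribosome-depleted stranded libraries, per the labels' protocols. The submitters' processing notes name edgeR 3.30.3, RSEM, STAR and cutadapt 3.5, with build GRCm39; their roles, order and gene filter are not given in the sources used here. The authors deposited 3 tables of 13784 genes (757 without a symbol), holding, per the file headers, log2 fold change, mean log2 CPM, F (a score), p-value and FDR. The FDR equals a Benjamini-Hochberg adjustment of the p-values in the table.

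Genotype labels, which match the treatment labels, gave the groups, although every title carries the word for saline. Sample codes are numbers in saline titles and letters in LPS titles, so treatment and any batch behind them cannot be told apart. Nothing states how the mice relate to litters. The direction of the fold changes is not in the headers. Back-calculated group levels matched across tables only when read as LPS minus saline and cKO minus control (SD over genes 0.0503 in cKO LPS and 0.0537 in control LPS, against at least 0.226 for the larger of these with any sign turned).

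Standard errors were derived from F, as the size of the log2 fold change over its square root. Back-calculation assumes libraries of equal weight. The difference of responses was tested as a z statistic whose standard errors come from the p-values through the normal quantile, adjusted by Benjamini-Hochberg over all genes. The 95% intervals of fold changes use degrees of freedom solved from each table's F and p. Lengths and GC content came from GENCODE M21 (GRCm38) by gene ID. Named members are those that passed anywhere, the 5 highest and 5 lowest per comparison, and partners of members that changed. Effectors are at most 6 per comparison by size; Neo1 and Lrrc4 are partners given beside these. The members and lists were chosen with earlier results of these data known. Alternatives were a minimum fold change, a minimum level, centring on the median, removal of the GC and length trend, and other standard errors for the difference. Analyses ran in Python 3.11.15 with numpy 2.4.6, pandas 2.3.3 and SciPy 1.17.1. The test of the difference of responses was tried on simulated data. It recovered 30.0% of simulated differences of 0.5 on the log2 scale and 76.5% of those of 1.0, with 6.44% of its calls false. With standard errors from F, 43.7% of those of 0.5 were recovered and 10.7% of the calls were false. A member passing in neither setting can thus still differ by 0.5 or, less often, by 1.0. The simulation changed 200 genes per run, whereas 1 gene passed this test in the data. The shares recovered in the data may therefore be lower.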

Additional observations from a re-analysis of the deposited data

How the results depend on the processing

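With a minimum fold change of 1.5, 6 members passed in cKO mice (Efnb2, Sema3g, Sema4g and Robo4 higher, Ephb2 and Robo3 lower) and 1 in control mice (Robo4); 4 effectors passed in cKO mice and 2 in control mice. Requiring a mean log2 CPM of at least 1 left 21 members in cKO mice and 5 in control mice. Centring on the median of all genes left 20 members in cKO mice, without Epha7 (-0.24, FDR 0.0506), and 5 in control mice. Removing the GC and length trend left 16 members in cKO mice, 3 of them (Plxna4, Ephb6 and Plxna1) not among the 21, and 4 in control mice. The cause of these losses was not tested beyond what each setting removes. The share of all genes that passed was not computed for these counts, so the losses cannot be set against those of all genes. Under each of these settings 0 members differed between genotypes after LPS. With standard errors from F, the difference of responses passed for 0 members, 5 had an unadjusted p below 0.05 (8.47% of all genes), and the lowest FDR was 0.236 (Efnb3). The saline estimate from back-calculated levels differed from that given by at most 0.11 for any member, and its median stayed at -0.03. No gene that passed in a comparison changed sign in it under the settings run, but the members' median in control mice, 0.02, was -0.07 with the GC and length trend removed. For the effectors and co-receptors, neither the minimum level nor the removal of the GC and length trend was run. No paired analysis was possible because the deposited tables hold no value per library; for the same reason no library could be left out and depth limits could not be set.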
